A study of Mus musculus with 4 samples.

Results

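The 10 genes described here encode mitotic kinesins, the motor proteins that move chromosomes and spindle microtubules (Cenpe, Kif11, Kif20a, Kif22, Kif23 and Kif2c), and proteins that bind and organise the spindle (Tpx2, Nusap1, Prc1 and Hmmr). They were chosen by name, and all probe sets whose single gene symbol on the platform is one of them were used, which gave 25 probe sets for 10 of the 12393 genes on the array. The RNA came from hair follicle stem cells of back skin, sorted for YFP, integrin α6 and CD34 from female mice of mixed CD1/C57BL/6 background at about postnatal day 60. The groups were Tbx1 cKO cells, from conditional knockouts of the T-box transcription factor gene Tbx1, and WT cells, with 2 Affymetrix arrays each. One cKO and one WT array are numbered together as set 2, whose samples the descriptions call activated, and one of each as set 1, whose samples they call quiescent. The treatment text gives wax depilation of the mid-dorsal skin 48 h before harvest for all 4 samples, so the sets are called by number. No source used here names the Cre driver, the floxed alleles or the number of mice per sort.

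Mitotic kinesins hydrolyse ATP to walk along microtubules or to take their ends apart, and between them they separate the spindle poles, align chromosomes at the spindle equator and build the central spindle at which the cell divides. Their genes are transcribed mainly in G2 phase and mitosis, and low levels are typical of resting cells. Bulge stem cells of the hair follicle rest through most of the hair cycle and divide briefly when a new hair starts to grow, which plucking or waxing can trigger.

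Promoters of G2 and mitosis genes often hold a CCAAT box, the site of the factor NF-Y, followed by a cell cycle genes homology region (CHR) with the letters TTTGAA, or in a variant form TTTAAA, which the MuvB complex can bind. RefSeq promoters of mouse build GRCm38.p6, from 250 bases before each start to 50 from the start on, were at hand for 8 of the 10 genes, as 9 promoters. On either strand, CCAAT was found in 7 of the 9 and one of the CHR forms in 8 of the 9. Both together were found in 7 of the 9 (77.8%), those of Cenpe, Kif11, Kif22, Kif23, Prc1 and Hmmr, against 10.7% of all 32851 promoters in the table. Counted by gene, since the windows of the 2 Prc1 promoters overlap, that is 6 of 8, against 12.2% of 27025 genes. CCAAT alone was found in 37.4% of all promoters, TTTGAA in 17.9% of them and the variant TTTAAA, which reads the same on both strands, in 13.2%. No matches overlapped in the promoters of these genes. The promoter of Kif2c held both CHR forms without CCAAT, and none of these letters were found in that of Nusap1. The matches describe letters only and are no evidence of binding.

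Stretches of these 6 genes' promoters are shown because they carry both elements close together near the start. In Cenpe, Hmmr and Kif23 the CHR letters lie after the start. Each runs 5′ to 3′ on the gene's strand from base -110 to base 29, where 1 is the first transcribed base, and capitals mark the CCAAT box and the CHR forms on either strand. They lie at chr19:37376272-37376410 (plus strand) for Kif11, chr7:80294341-80294479 (plus) for the first of the 2 Prc1 promoters, chr7:127042392-127042530 (minus) for Kif22, chr3:135212453-135212591 (plus) for Cenpe, chr11:40733409-40733547 (minus) for Hmmr and chr9:61946771-61946909 (minus) for Kif23.
Kif11: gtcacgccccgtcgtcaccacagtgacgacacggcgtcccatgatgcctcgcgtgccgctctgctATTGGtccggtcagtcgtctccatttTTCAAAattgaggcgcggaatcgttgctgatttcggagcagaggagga
Prc1: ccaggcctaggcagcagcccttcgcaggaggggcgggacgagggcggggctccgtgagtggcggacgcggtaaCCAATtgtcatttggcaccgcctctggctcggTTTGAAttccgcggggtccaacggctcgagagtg
Kif22: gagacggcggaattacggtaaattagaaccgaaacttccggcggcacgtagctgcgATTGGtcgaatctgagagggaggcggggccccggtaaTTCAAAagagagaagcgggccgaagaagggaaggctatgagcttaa
Cenpe: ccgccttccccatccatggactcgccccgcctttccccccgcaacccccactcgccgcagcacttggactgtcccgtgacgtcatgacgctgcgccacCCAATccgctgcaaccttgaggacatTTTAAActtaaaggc
Hmmr: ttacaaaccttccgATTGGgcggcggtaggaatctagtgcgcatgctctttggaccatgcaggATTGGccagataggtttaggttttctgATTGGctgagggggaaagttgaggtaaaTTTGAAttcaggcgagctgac
Kif23: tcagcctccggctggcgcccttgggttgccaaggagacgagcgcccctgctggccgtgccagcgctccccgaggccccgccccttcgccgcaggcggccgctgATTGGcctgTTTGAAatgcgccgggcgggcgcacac
In the Kif11 and Cenpe promoters the CCAAT box and the nearest CHR letters started 26 bases apart. The distance was 28 bases in Hmmr, whose 300 bases held CCAAT at 5 places, 32 bases in Prc1 and 9 bases in Kif23. Kif22 held a CCAAT box at -54 with CHR letters at -17, and a second pair at -233 and -215.

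Averaged over the arrays, all 10 genes lay above a log2 intensity of 5.40, below which a gene was taken as dim and not tested. All 12 bulge and basal keratinocyte markers also lay above that limit, among them Cd34 at 8.85 to 9.46 and Itga6 at 11.35 to 11.87. All 5 suprabasal keratinocyte markers with a probe set passed the limit on at least 1 array too. The limit therefore does not tell bulge cells from other keratinocytes. Tbx1 itself read 8.88 and 9.54 on the cKO arrays of sets 2 and 1, against 10.37 and 10.53 on the WT arrays of sets 2 and 1. Its signal was thus lower in cKO but stayed above the dim limit, and no source used here says whether its probes lie in the deleted part of the gene. On the WT set 2 array the nuclear RNA Malat1 read 12.35, against 9.80 to 10.56 on the other arrays. On the cKO set 1 array the 3′ probe set of the spiked-in dap transcript exceeded its 5′ probe set by 2.56, against 1.43 to 1.52 elsewhere, a sign of weaker 5′ signal. Both arrays enter the values below, and their part in them was not tested. With 2 arrays a group, an exact permutation test of 1 value cannot give a p under 0.333.

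The first comparison asked whether the mitotic motor and spindle genes differ between cells labelled Tbx1 cKO and WT cells. For all 10 genes the higher cKO array lay below the lower WT array, with mean differences between -1.83 for Cenpe and -0.54 for Kif22 on the log2 scale. The cKO signal therefore lay between 28.2% and 68.8% of WT. Of the 8031 genes tested, 19.9% had both cKO arrays below both WT arrays and 26.7% had both above. None of the 10 passed limma's test (adjusted p from 0.125 to 0.319), beside 0.0872% of all genes in either direction and 0.0623% with lower values in cKO. At an unadjusted limma p under 0.05, all 10 were lower in cKO, as were 5.79% of all genes, while 8.37% were higher. The genes were chosen with earlier results of these arrays known, so these counts describe them and are no independent evidence. In bulk RNA, fewer dividing cells in a sort and less of these transcripts per cell cannot be told apart.

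**Figure D1:**
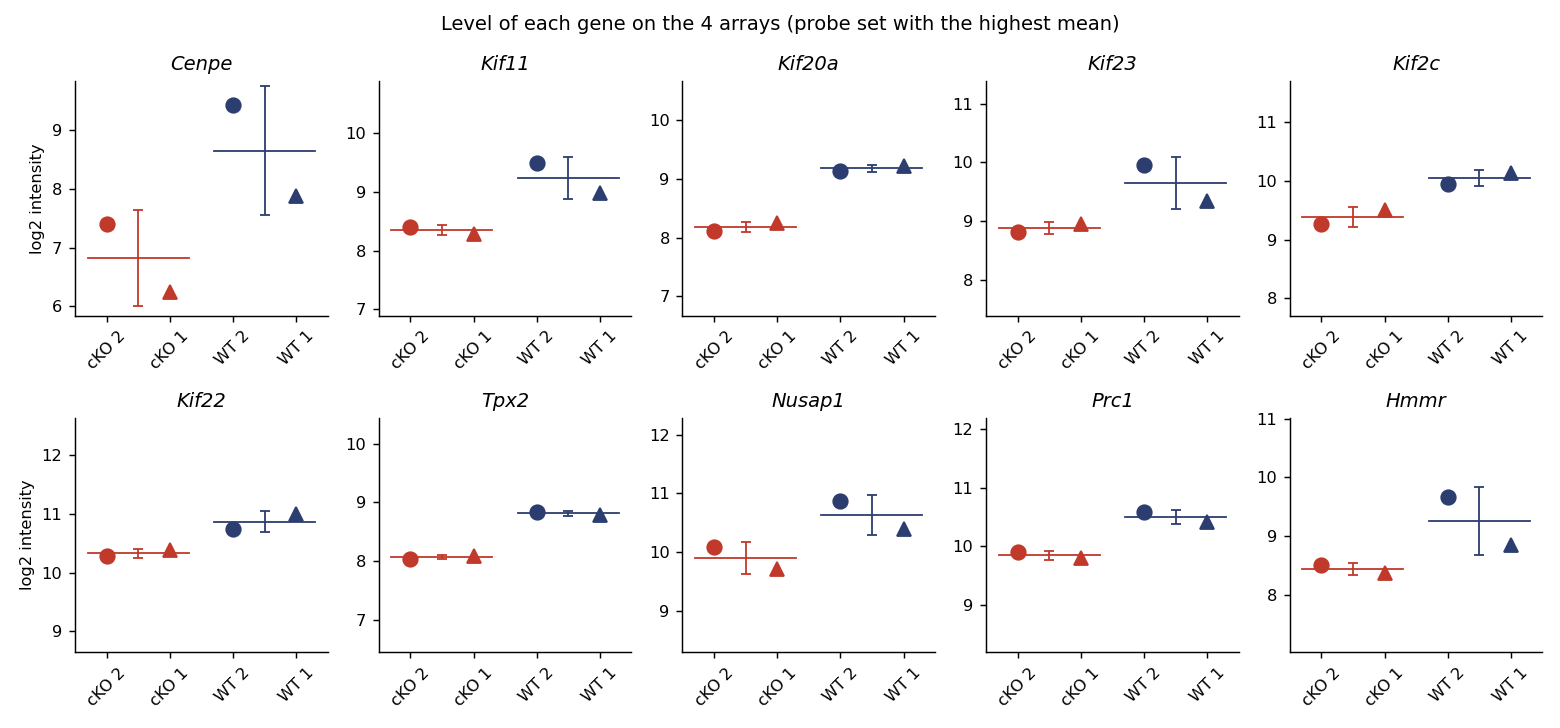
Level of each of the 10 genes (log2 intensity, vertical axis, each panel spanning 4 units) on the cKO arrays (red) and WT arrays (blue) of set 2 (circles) and set 1 (triangles). Horizontal lines are group means and bars their SD (n = 2), and in each panel both red points lie below both blue points.

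Among the motors that act on chromosomes, Cenpe had the widest difference. Cenpe, a kinetochore kinesin that carries chromosomes towards the spindle equator, read 7.40 and 6.25 on the cKO arrays of sets 2 and 1, against 9.43 and 7.88 on the WT arrays of sets 2 and 1. Its groups did not overlap, but each spread widely, with means of 6.83 ± 0.82 in cKO and 8.65 ± 1.10 in WT (SD, n = 2). The difference of -1.83 (SE 0.59) had a limma adjusted p of 0.290, and with the set as a block it passed, with an SE of 0.19 and an adjusted p of 0.0144, as did 0.374% of all genes in this direction and 1.03% in either. Cenpe was the only one of the 10 to pass with the block. Without the WT set 2 array its difference was -1.05, and leaving out the cKO set 1 array gave -1.25; these are the 2 arrays that stood apart above. With the WT set 1 array left out instead it was -2.60. Between the other two arrays, cKO set 2 and WT set 1, it was -0.47.

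Kif22, a chromosome-bound kinesin that pushes chromosome arms away from the poles, read 10.28 and 10.38 in cKO sets 2 and 1, against 10.74 and 11.00 in WT sets 2 and 1. Kif22 had the smallest difference of the 10 (-0.54, SE 0.17, limma adjusted p = 0.290). On the probe sets tested, it alone lay further below WT in set 1 (-0.62) than in set 2 (-0.46). Some other probe sets of Kif2c, Prc1 and Hmmr above the dim limit did so too. Kif2c, a kinesin that does not walk but depolymerises microtubules at centromeres, read 9.27 and 9.51 in cKO sets 2 and 1, against 9.95 and 10.14 in WT sets 2 and 1. Its difference was nearly the same in both sets, at -0.68 in set 2 and -0.64 in set 1 (limma adjusted p = 0.241). That holds for its brightest probe set: with the mean of its 4 probe sets, 1 of them dim, the Kif2c difference was -0.33 (limma adjusted p = 0.405).

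Kif11 and 3 spindle proteins act in the body of the spindle. Kif11, also called Eg5, slides antiparallel microtubules apart so that the spindle becomes bipolar. It read 8.41 and 8.29 in cKO sets 2 and 1, against 9.49 and 8.99 in WT sets 2 and 1, and both cKO arrays lay at least 0.58 below the lower WT array. The difference was -0.89 (SE 0.21, limma adjusted p = 0.221), with cKO signal at 47.3% of WT in set 2 and 61.7% in set 1. Tpx2, which nucleates spindle microtubules and activates the kinase Aurora A, had the tightest groups, at 8.04 and 8.09 in cKO and 8.84 and 8.78 in WT in the same order. Its means of 8.06 ± 0.03 in cKO and 8.81 ± 0.04 in WT (SD, n = 2) differed by -0.75 (SE 0.15, limma adjusted p = 0.181).

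Nusap1, which bundles microtubules near chromatin, read 10.09 and 9.71 in cKO sets 2 and 1, against 10.87 and 10.39 in WT sets 2 and 1. It had the narrowest gap between the groups, 0.29 between the higher cKO and the lower WT array, although its difference of -0.77 within set 2 and -0.68 within set 1 varied little. Hmmr, a spindle and centrosome protein that is also known as a receptor for hyaluronan, read 8.51 and 8.36 in cKO, against 9.67 and 8.84 in WT in the same order. Its difference was -1.16 in set 2 and -0.48 in set 1, and the mean of -0.82 became -0.41 when WT set 2 was left out and -1.23 when WT set 1 was.

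The remaining 3 genes work at the central spindle, where the division plane is set. Kif20a, which brings the chromosomal passenger complex to the central spindle, read 8.11 and 8.24 in cKO sets 2 and 1, against 9.14 and 9.22 in WT sets 2 and 1. The 4 values fell into pairs by genotype with hardly any spread, and the difference of -1.002 (SE 0.16) put cKO at 49.2% of WT in set 2 and 50.7% in set 1. Its limma adjusted p of 0.125 was the lowest of the 10, and it was 0.0537 with the set as a block. Kif23, the motor of the centralspindlin complex, read 8.81 and 8.95 in cKO, against 9.96 and 9.33 in WT in the same order. Its groups did not overlap either, but the difference was -1.14 in set 2 and -0.38 in set 1, and its mean of -0.76 became -0.45 without the WT set 2 array. Prc1, which crosslinks antiparallel microtubules of the central spindle, read 9.90 and 9.79 in cKO, against 10.59 and 10.42 in WT in the same order, with differences of -0.69 in set 2 and -0.63 in set 1.

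**Figure D2:**
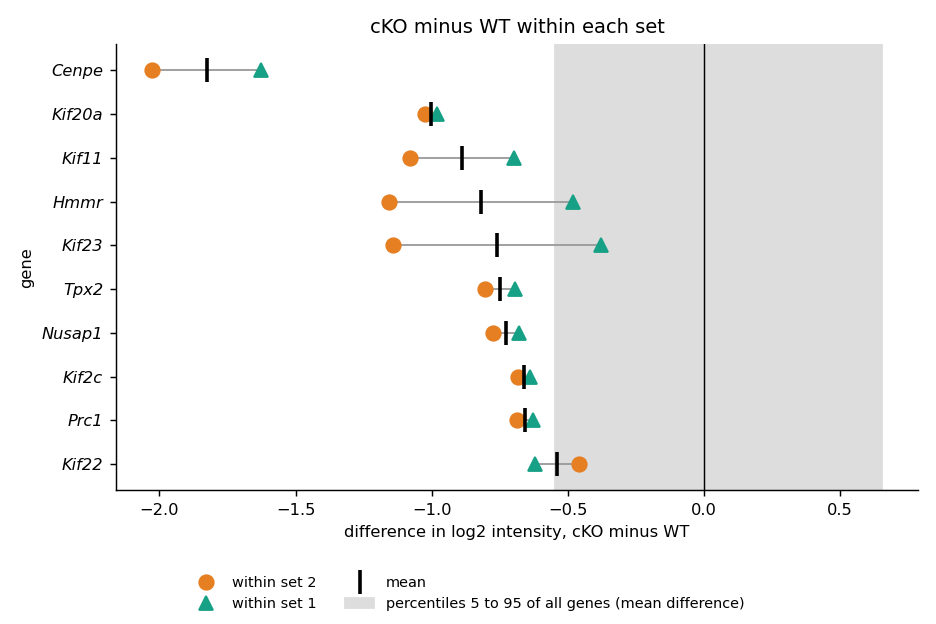
Difference in log2 intensity between cKO and WT (horizontal axis) for each of the 10 genes within set 2 (orange circles) and set 1 (green triangles), with black ticks at the mean. Grey spans percentiles 5 to 95 of the mean difference of all 8031 genes tested, and each of the 20 within-set differences lies below 0.

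Across the 10 genes the median difference was -0.75, -0.91 within set 2 and -0.66 within set 1, against 0.03 over all genes tested. Lower values in cKO within both sets were found for 10 of the 10 genes and 27.9% of all genes. That count of the 10 follows from the lack of overlap given above and adds nothing to it. At least 1.5-fold lower values within both sets were found for 7 of the 10 and 1.64% of all genes. The exceptions, on the probe sets tested, were Kif23 and Hmmr, which differed by less than 1.5-fold in set 1, and Kif22 in set 2. The other Hmmr probe sets differed by -0.86, -1.49 and -1.01 in set 1, against -1.06, -1.21 and -1.20 in set 2. The second Kif23 probe set above the dim limit differed by -0.85 in set 1 and -1.57 in set 2. A dimmer Kif11 probe set (-0.44 in set 1) and the dimmest Kif2c one above the limit (-0.20) instead fell short of 1.5-fold. For 9 of the 10 the difference was further below 0 in set 2, on the probe sets tested. The set 2 difference minus the set 1 difference was -0.76 for Kif23, -0.68 for Hmmr, -0.40 for Cenpe and -0.38 for Kif11, and it could not be tested with 1 array per genotype and set. Comparing only cKO set 2 with WT set 1 leaves out both arrays that stood apart but mixes genotype with set. The median of the 10 there was -0.55. All 10 were lower in cKO, beside 50.7% of all genes, which again follows from the lack of overlap. There Cenpe differed by -0.47, Kif11 by -0.58, Hmmr by -0.34 and Nusap1 by -0.29, each more than 1.5-fold smaller on the log2 scale than its mean difference. Kif23 and Prc1, at -0.52 each, were smaller to a lesser degree, and Tpx2 hardly changed (-0.74). Kif20a (-1.11), Kif2c (-0.88) and Kif22 (-0.72) instead lay further below 0 than their mean differences. Comparing only cKO set 1 with WT set 2, the median was -0.95, with all 10 lower for the same reason, beside 41.7% of all genes.

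Some markers of other cell types differed with genotype as well. Of 10 endothelial markers, 9 had both cKO arrays below both WT arrays, beside 19.9% of all genes tested, which leave out dim genes. Summed linear intensity of the 10 markers was 186 and 179 on the cKO arrays of sets 2 and 1. On the WT arrays of sets 2 and 1 it was 802 and 925. Pecam1, Kdr, Tek, Cldn5 and Tie1 lay below the dim limit on all 4 arrays. Summed suprabasal keratinocyte markers stood at 24929 and 22191 in cKO sets 2 and 1, against 6920 and 20283 in WT sets 2 and 1. Of 5 suprabasal markers, 0 had both cKO arrays below both WT arrays and 3 had both above. The WT set 2 array, which had the highest reading of 7 of the 10 mitotic genes, had the lowest suprabasal signal. Of 6 fibroblast markers, dim ones included, 2 had both cKO arrays below both WT arrays and 3 had both above. Of 7 immune markers, 0 had both below and 2 both above, and of 4 melanocyte markers 0 went either way. Of 7 hair matrix and germ markers, 1 had both below and 2 both above. Among all genes tested, 19.9% had both below and 26.7% both above. The part of any of these cells in the differences was not tested.

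The separate probe sets of a gene read the same RNA on each array, so their counts are not independent support. Of the 25, 22 lay above the dim limit. All 22 were lower in cKO within both sets, as were 27.9% of all genes tested, read on 1 probe set each. For 21 of the 22 both cKO arrays lay below both WT arrays, as for 19.9% of all genes tested. The exception was a Hmmr probe set other than the one tested, which read 6.76 and 5.66 in cKO sets 2 and 1, against 7.82 and 6.51 in WT sets 2 and 1, so that cKO set 2 lay above WT set 1. Of 8 genes with several probe sets, Hmmr had 4, which differed by -0.82, -0.96, -1.35 and -1.11, and Kif11 had 3, which differed by -0.89, -0.89 and -0.66. Kif23 differed by -0.76 on the probe set used for the test and by -1.21 on a dimmer one. Prc1 differed by -0.66 and -1.001 and Tpx2 by -0.75 and -0.74. Kif22 differed by -0.54, -0.70 and -0.59 on its 3 probe sets.

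The probe sets used for Kif2c and Kif22 carry the suffix x, which marks probes that may bind other transcripts too, and each gene had others without that suffix. Kif2c differed by -0.66 on the first, by -0.71 on another and by only -0.19 on the dimmest of those above the limit, whose readings of 5.33 to 5.66 lay close to the dim limit. The 3 dim probe sets were 1 each of Kif23, Kif2c and Nusap1. The dim Kif23 and Kif2c probe sets, at 2.91 to 3.25 and 3.42 to 3.95, were higher in cKO in set 1 and lower in set 2, and the dim Nusap1 probe set differed by -0.59.

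**Figure D3:**
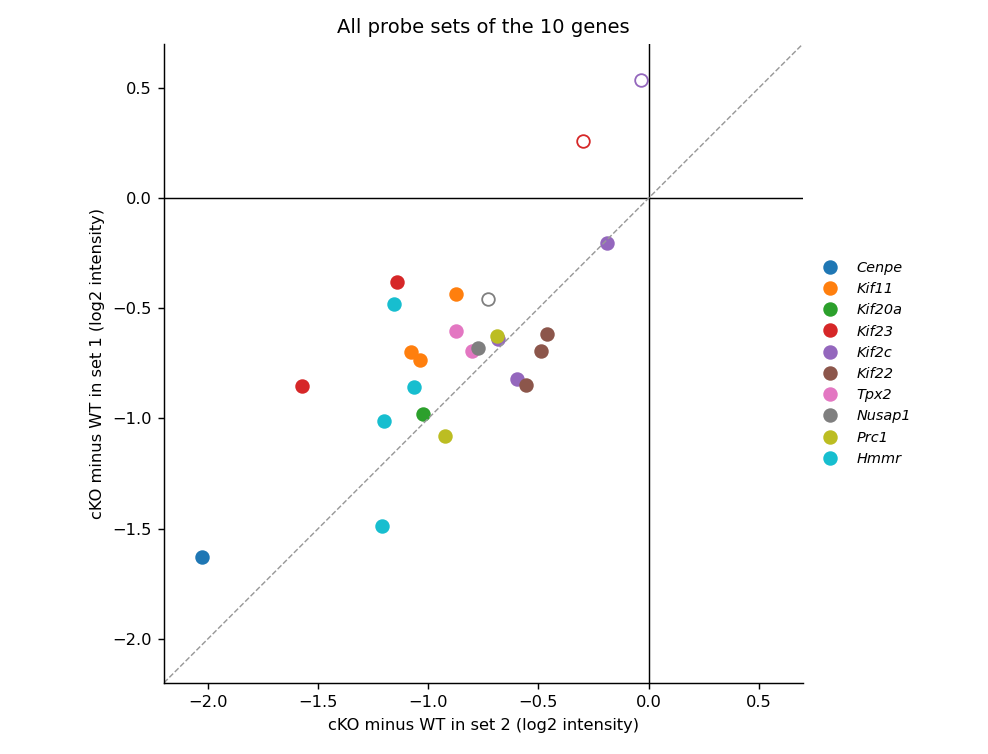
Difference in log2 intensity between cKO and WT in set 2 (horizontal axis) and in set 1 (vertical axis) for all 25 probe sets, coloured by gene. Filled points are the 22 above the dim limit and open points the 3 below it, the dashed line marks equal differences, and all filled points lie below and to the left of 0.

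The second comparison set the samples described as activated (set 2) against those described as quiescent (set 1). The 10 genes did not move together here. On the probe sets tested, both genotypes read higher in set 2 for Cenpe, Kif11, Nusap1, Prc1 and Hmmr, 5 of the 10, beside 19.8% of all genes. Both read lower in set 2 for Kif20a, Kif2c and Kif22, 3 of the 10, beside 35.8% of all genes. No gene of the 10, nor any of the 8031 tested (0%), passed limma's test between sets at an adjusted p under 0.05. Before adjustment, 230 genes (2.86%) had a limma p under 0.05, none of them among the 10, whose lowest unadjusted p was 0.154, that of Cenpe. With genotype as a block 0.0125% of all genes passed and none of the 10. For none of the 10 did both set 2 arrays lie above both set 1 arrays, as for 11.1% of all genes, or both below, as for 19.5%.

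Cenpe had the widest set difference, 1.16 within cKO and 1.55 within WT, with means of 8.42 ± 1.43 in set 2 and 7.06 ± 1.15 in set 1 (SD, n = 2), a mean difference of 1.36 (SE 0.82) and a limma adjusted p of 0.999. Cenpe was the only one of the 10 at least 1.5-fold higher in set 2 within both genotypes, beside 0.573% of all genes. Nusap1 differed by 0.38 within cKO and 0.48 within WT. Hmmr differed by 0.14 within cKO and 0.82 within WT, Kif11 by 0.12 and 0.50 and Prc1 by 0.11 and 0.17. The other Hmmr probe sets differed more evenly, by 0.59 to 1.20 within cKO and by 0.78 to 1.31 within WT.

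Kif20a differed by -0.13 within cKO and -0.08 within WT, Kif2c by -0.24 and -0.20 and Kif22 by -0.10 and -0.26. The Kif2c values hold for its brightest probe set. Of its others above the dim limit, the brighter differed by 0.11 within cKO and -0.11 within WT, and the dimmer by 0.14 and 0.13. Kif23 went in opposite directions, -0.14 within cKO and 0.62 within WT, and so did Tpx2 by small amounts, -0.05 and 0.06. For 9 of the 10 genes, all but Kif22, the set difference on the probe set tested was larger in WT than in cKO, as it was for 48.3% of all genes. These are the same 4 values as in the genotype comparison, so this count repeats the one given above for the sets.

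**Figure D4:**
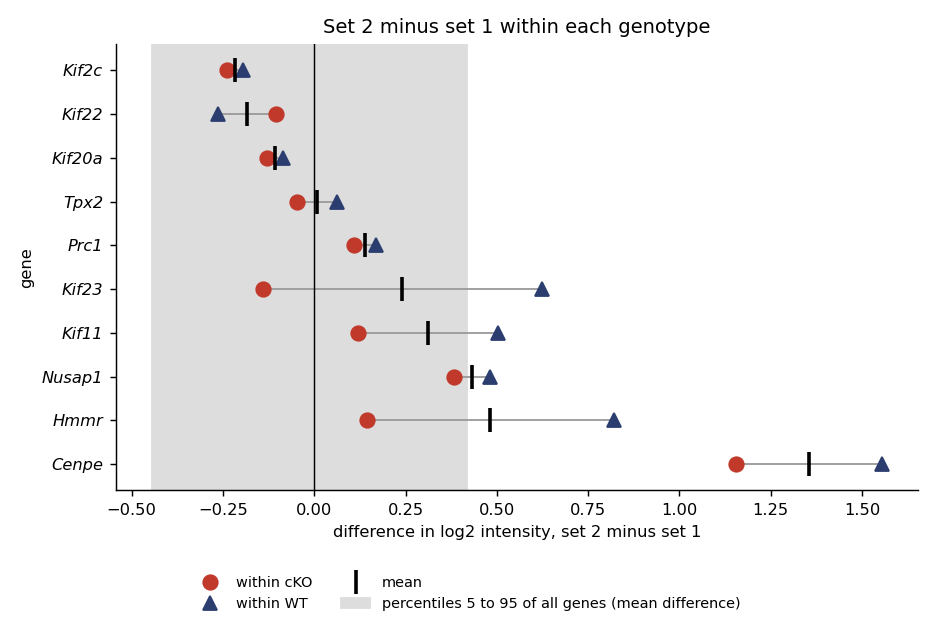
Difference in log2 intensity between set 2 and set 1 (horizontal axis) for each of the 10 genes within cKO (red circles) and within WT (blue triangles), with black ticks at the mean. Grey spans percentiles 5 to 95 of all genes tested, and Cenpe, Hmmr and Nusap1 have means to its right.

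The median over the 10 genes was 0.19, 0.03 within cKO and 0.32 within WT, against -0.05 over all genes tested. It depended on single arrays: it was -0.28 when WT set 2 was left out, -0.11 when cKO set 1 was, 0.65 when cKO set 2 was and 0.44 when WT set 1 was. Leaving out an array here leaves 1 set with a single genotype, so that these values also carry the genotype difference.

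Other genes of the same machinery were taken from fixed lists. Of 9 other mitotic kinesins, 4 had a probe set with a single symbol. Kif4, a chromosome-bound kinesin of the central spindle, differed by -0.85 between cKO and WT, Kif18a, which dampens chromosome oscillation, by -0.89, the minus-end motor Kifc1 by -0.43 and the depolymerase Kif2a by -0.30. None passed limma's test, and 3 of the 4, all but Kif2a, were lower in cKO within both sets. Of 33 other spindle and cytokinesis genes 26 were tested, and 25 of them lay below WT in both sets; the median difference was -0.56. Numa1, which anchors microtubules at the poles and is named after its values were seen, was the exception, at 0.67 in set 2 and 0.02 in set 1. Depdc1a differed by -1.32, Cenpf, a kinetochore protein, by -0.92, Spag5 (astrin) by -0.86 and Ckap5, a microtubule polymerase, by -0.81. None of the 26 passed limma's test, and Depdc1a alone passed with the set as a block (adjusted p = 0.0405).

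Kinesins and light chains of intracellular transport, which interphase cells use, gave other values. Of the 14 tested, 1 (Kif5b, -0.24) was lower in cKO within both sets and 9 were higher. Of all 8031 genes tested, 2240 were lower and 2875 higher in cKO within both sets. The median difference of the 14 was 0.20, and none passed limma's test in either direction. Klc3 differed by 0.81, Kifc3 and Klc4 by 0.58 each and Kif21a by 0.53. Of 11 tubulin genes tested, 2 (Tubb5 and Tubg1) were lower and 2 (Tubb2a and Tuba4a) higher in cKO within both sets. The median was 0.04 and none passed. Tubb2a differed by 0.79 and Tuba8 by 0.61, and Tubb5 differed by -0.37 and Tubg1, the spindle pole tubulin that is also in the spindle list, by -0.65. Tuba4a, named after its values were seen, differed by 0.24. Of 8 genes used as general markers of cycling cells 7 were tested, and all 7 were lower in cKO within both sets with none passing, among them Bub1 at -1.07 and Mki67 at -1.003.

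**Figure D5:**
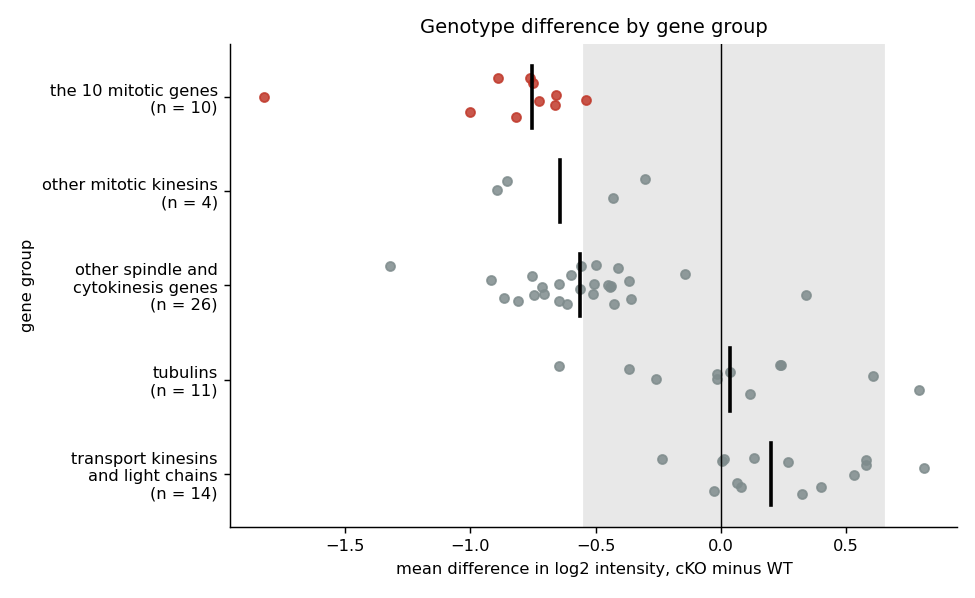
Mean difference in log2 intensity between cKO and WT (horizontal axis) for each tested gene of 5 groups, 1 point per gene with vertical jitter only to part them. Black bars are medians, from -0.75 for the 10 mitotic genes (red) to 0.20 for transport kinesins and light chains, and grey spans percentiles 5 to 95 of all genes tested.

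The mean profile of the 10 genes over the 4 arrays, after subtracting each gene's own mean, was -0.37 and -0.49 in cKO sets 2 and 1 and 0.62 and 0.25 in WT sets 2 and 1. The genes outside the 10 whose profile lay nearest, by root mean square difference over the 4 arrays, were Knstrn (0.025), Kif4 (0.049), Plat (0.056), Top2a (0.057), Ctbp2 (0.062), Lin9 (0.070), Fubp1 (0.078) and Psip1 (0.078). Of the 10 themselves Kif11 lay nearest to their mean (0.050) and Cenpe farthest (0.74), with a median of 0.15, against 0.50 over all genes tested. The 10 genes set the mean profile themselves, and likeness over 4 arrays describes these arrays only.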

How the data were processed

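The authors deposited linear intensity values, 1 per probe set and array, for 22690 probe sets. The submitters' processing notes name RMA (background correction, normalisation and probe summary); no source used here gives its version. The values ran from 5.29 to 25561 with medians of 82.0 to 83.3, so log2 was computed from them. Gene symbols came from the platform annotation, and the 20380 probe sets with a single symbol were used. For tests, the brightest probe set on average stood for each of 12393 genes, and genes with a mean under percentile 40 of all probe sets (log2 5.40), Xist and Y-linked genes were left out, which left 8031. Dimness was judged from level only, as there are no detection calls. Each comparison (cKO against WT, set 2 against set 1) used all 4 arrays without covariates in limma 3.58.1 (R 4.3.3; lmFit, then eBayes). P-values were adjusted by Benjamini-Hochberg over all genes tested, at a threshold of 0.05. The labels do not tie the arrays to separate animals, so the p-values reflect variation among these 4 samples alone, possibly technical, and precision is limited by there being 4 arrays. The fit was tested on simulated data, with shifts that were not matched to the differences seen here.

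The set numbers in the titles were read as pairing the arrays, since both arrays of a set share a described state. Same-numbered arrays deviated together from the genotype means (r = 0.192 across genes, which are not independent). With the set as a block the model has 1 residual degree of freedom. The genes and lists were chosen with earlier results of these data known. Named genes were the 10 with all probe sets, up to 4 of each list with the largest mean difference per comparison and any that passed, and the 8 nearest profiles. Promoter sequences are RefSeq's, of build GRCm38.p6, and the arrays' files name no build. Alternatives were other filters on dim genes, summaries of probe sets, scalings, a variance trend, a threshold of 0.10, the block and leaving out arrays. One of them, the count of genes lower in cKO set 2 than in WT set 1, was chosen after seeing the data.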

Additional observations from a re-analysis of the deposited data

Results flagged for a closer look

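Kif23 and Tpx2 differed between sets in opposite directions in the 2 genotypes, a difference that was not tested, since there is 1 array per genotype and set. Kif23 differed by -0.14 in cKO and 0.62 in WT, and Tpx2 by -0.048 in cKO and 0.062 in WT. The second Kif23 probe set above the dim limit differed by -0.04 in cKO and 0.68 in WT, and the second Tpx2 probe set by -0.30 and -0.03, so that the opposite signs of Tpx2 were seen on 1 of its 2 probe sets. The WT set 2 array, with the high Malat1 reading, enters both WT values, and its part was not tested.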

How the results depend on the processing

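All 120 recomputed genotype differences of the 10 genes kept their direction, and 1, Cenpe with the set as a replicate block, passed the threshold (-1.83, limma adjusted p = 0.0144). Most of the 120 could not reverse. The filters, the separate probe sets, the variance trend and the block leave the difference itself unchanged. Leaving out an array cannot reverse it either, since both cKO arrays lay below both WT arrays for all 10. Only the mean of probe sets and the scalings could change a direction. The block thus called 1 of the 10 genes and 83 of all genes, against 0 and 7 without it, and with genotype as the block 1 gene of all was called between sets; it changed no other call of the 10. Genes called between genotypes were 0 at the percentile 60 filter (816 of 5733 at an unadjusted limma p under 0.05), 28 with the variance trend, 39 at a threshold of 0.10 and 2 to 16 with an array left out, 2 of them without WT set 2 and 16 without cKO set 2. With the mean of its probe sets Kif2c differed by -0.33 between genotypes, against -0.66 on its brightest one. The median genotype difference was -0.96 to -0.65 with an array left out and -0.55 between cKO set 2 and WT set 1 only. All 10 genes were lower in cKO there, which the lack of overlap between the groups fixes in advance.

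Set differences kept their direction in 103 of 120 values, which include the same settings that leave a difference unchanged. The Tpx2 value of 0.01 became -0.077 with the mean of its probe sets, -0.0033 after a second quantile normalisation and -0.0093 with each array centred on its median. With an array left out, which leaves the lone array of a group assumed to vary like the others, the median ran from -0.28 to 0.65, Kif11 from -0.23 to 0.85, Kif20a from -0.62 to 0.41, Kif23 from -0.33 to 0.81, Kif2c from -0.56 to 0.12, Kif22 from -0.49 to 0.13, Tpx2 from -0.39 to 0.41, Prc1 from -0.21 to 0.48 and Hmmr from -0.096 to 1.06. The cause was not tested beyond the loss of 1 genotype from a set.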

Other observations

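Between sets, genes of the same machinery outside the 10 also varied without a call by limma. Kif18a differed by 0.41 within cKO and 1.06 within WT, Cenpf by 0.23 and 0.90 and Ckap5 by 0.15 and 0.78. The chromosomal passenger kinase gene Aurkb differed by -0.38 within cKO and -0.52 within WT. Of the transport motors, Kif5b, the heavy chain of conventional kinesin, differed by 0.54 within cKO and 0.78 within WT, and Kif1c by -0.25 and -0.64. The tubulin gene Tubb2b differed by -0.01 within cKO and -1.01 within WT.

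CCAAT with TTTGAA or TTTAAA was found in 4 of 10 promoters of the other mitotic kinesins, 13 of 27 of the other spindle and cytokinesis genes and 2 of 25 of the transport kinesins and light chains, beside 10.7% of all promoters.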
